A study of Mus musculus with 10 samples.

Results

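Mouse epidermal cells carrying the oncogenic Hedgehog pathway mutant SmoM2, with the mutant switched on through Inv-CreER and with Survivin gain of function, were compared with cells in which it was switched on through Krt14-CreER. Each group had 2 libraries, so that 4 of the 10 RNA sequencing libraries of the study entered the comparison. The genes taken were those whose deposited value reached 10 in 2 or more of these 4 libraries, 20496 of 49671 gene IDs (41.3%). In the study, cells that expressed SmoM2-YFP were sorted from skin epidermis, and the series asks what Survivin does as such cells form basal cell carcinoma. Both groups were at 8 weeks after TAM, as the titles write it, read here as tamoxifen. Their genotypes were Inv-CREER/Rosa-SmoM2/Krt14rtTA/Survivin-GOF, called GOF below, and Krt14-CREER/Rosa-SmoM2, called Krt14 below. Levels in Inv-CREER/Rosa-SmoM2 cells at 8 weeks, called Inv below, are given beside the comparison with no test. The sample descriptions name both Inv libraries as pools.

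SmoM2 is a form of Smoothened that signals without ligand, and all of these groups carry it at the Rosa locus. Krt14 is a keratin of basal keratinocytes, which hold the epidermal stem cells, whereas involucrin (Inv) is made by keratinocytes that have begun to differentiate. A CreER under either promoter therefore starts the mutant in different cells. The transactivator rtTA under the Krt14 promoter turns on a target gene when doxycycline is present, and the labels give no doxycycline dose or schedule. GOF differed from Krt14 in the CreER driver, in Krt14rtTA and in Survivin gain, and these 3 differences cannot be told apart in this comparison. The GOF libraries also held far more Xist than the Krt14 libraries (values below), which cannot be told apart from them either. The labels do not say whether libraries came from separate mice, nor do they give age or sex, so a p-value here reflects library-to-library spread, possibly technical.

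Survivin, the product of Birc5, is a member of the inhibitor-of-apoptosis family. In dividing cells it works with Aurora B, INCENP and Borealin in the chromosomal passenger complex, which corrects chromosome attachment and helps cells divide, and its transcription normally rises with mitosis. In skin it is a marker of keratinocytes with proliferative capacity. Hedgehog signalling runs from the receptor Ptch1 through Smoothened to the Gli transcription factors, and its persistent activity in keratinocytes drives basal cell carcinoma.

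The 4 libraries were of like depth, but the GOF pair was less alike than the Krt14 pair. Reads recovered from the deposited values numbered 8317699 and 7692793 in GOF and 8645280 and 7843149 in Krt14, and mitochondrial transcripts made up 2.14% to 3.11% of the values over all 10 libraries. Across genes, the Pearson correlation of log2 values was 0.961 within GOF and 0.977 within Krt14. Of 14529 genes with a mean of at least 50, replicates were at least 2-fold apart in 8.45% for GOF and in 1.53% for Krt14. Xist, the transcript of X inactivation in female cells, was at 7589 and 56185 in GOF replicates 1 and 2 and at 51 and 118 in Krt14. The Y-linked helicase gene Ddx3y was at 3328 and 970 in GOF and at 2453 and 2489 in Krt14. Both GOF libraries thus held Xist together with Y-linked transcripts, whereas Xist in Krt14 stayed below every GOF value. The labels do not say whether a GOF library holds cells of 1 mouse or of several, which bears on what its 2 replicates and their spread stand for.

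Epidermal markers were high throughout, as the tissue label says. The 8 keratinocyte markers summed to 239014 and 168805 normalized counts in GOF and 267276 and 279155 in Krt14. Of 4 defining endothelial markers all were detected in GOF, with sums of 293 and 1095 against 210 and 171. The 6 fibroblast markers summed to 37656 and 14803 in GOF and 2441 and 1805 in Krt14, nearly all of it Dcn, a proteoglycan gene. The 7 melanocyte markers summed to 2053 and 1838 against 1364 and 1527, and 8 macrophage and Langerhans markers to 741 and 662 against 343 and 508. The 6 neutrophil markers summed to 136 and 99 against 1486 and 2291, made up almost wholly of S100a8 and S100a9, which keratinocytes also express, and the neutrophil gene Retnlg was at 0 in all 4 libraries. The 5 T cell markers summed to 14 and 11 against 36 and 54, and 5 Merkel cell markers to 172 and 196 against 220 and 347, with Krt20 at 0. The part of these other cell types in the results below was not tested. In these bulk samples, fewer cells of a type and less RNA per cell cannot be told apart.

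Birc5 was higher in GOF than in Krt14, and both stood above Inv. Birc5 (ENSMUSG00000017716, GRCm38 chromosome 11, 117849251 to 117855743, plus strand) was at 7277 and 16384 normalized counts in GOF (mean 11830.5 ± 6440, SD, n = 2) and at 1005 and 926 in Krt14 (mean 965.5 ± 55.9, SD, n = 2). The Inv libraries held 237 and 265. Both GOF libraries lay above both Krt14 libraries, and GOF replicate 2 held more than replicate 1. The log2 change was 3.50 (SE 0.35, adjusted p = 0.00443 by limma with Benjamini-Hochberg adjustment). With Krt14 replicate 1 or 2 left out the adjusted p was 0.299 and 0.286 in the fit to the remaining libraries, and 7.32e-04 and 8.08e-04 in limma's fit over all 5 groups of the study. Values at gene level do not separate transcripts of the endogenous gene from those of a transgene. In this and all later sentences a level is a normalized count, and a log2 change is GOF minus Krt14 on the scale of log2(normalized count + 1).

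Of 20496 genes tested by limma, 3301 (16.1%) were called changed at an adjusted p under 0.05, 1725 (8.42%) higher and 1576 (7.69%) lower in GOF. Without X and Y genes 3222 were called. At least 2-fold changes with a call numbered 2037 (9.94%), of which 1021 were higher and 1016 lower. Groups did not overlap in 62.8% of all genes tested, so that an absence of overlap alone is common here. The exact two-sided permutation test for 2 against 2 libraries cannot go below p = 0.333, and the calls rest on limma's spread shared across genes. With the spread estimated over all 5 groups of the study 6138 genes were called, among them 3258 of the 3301. With no intensity trend in that spread 617 were called, and with no filter on low values 0 of 30270 (7702 at an unadjusted p under 0.05). Leaving out either Krt14 library also gave 0 calls in the fit to the remaining 3 libraries, with 2833 and 2946 genes at an unadjusted p under 0.05. The spread then comes from the GOF pair alone. In the 5-group fit without Krt14 replicate 1 or 2, 3370 and 3519 genes were called. The balance of directions also moved: 52.3% of calls were higher in GOF, against 42.8% after median-of-ratios scaling, 44.4% without GOF replicate 1 and 47.5% without GOF replicate 2. No called gene changed sign in any of these settings. The 5-group, no-trend and no-filter fits keep each gene's log2 change, so no sign could turn there. Leaving out a library cannot turn the sign of a gene whose groups do not overlap.

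**Figure D1:**
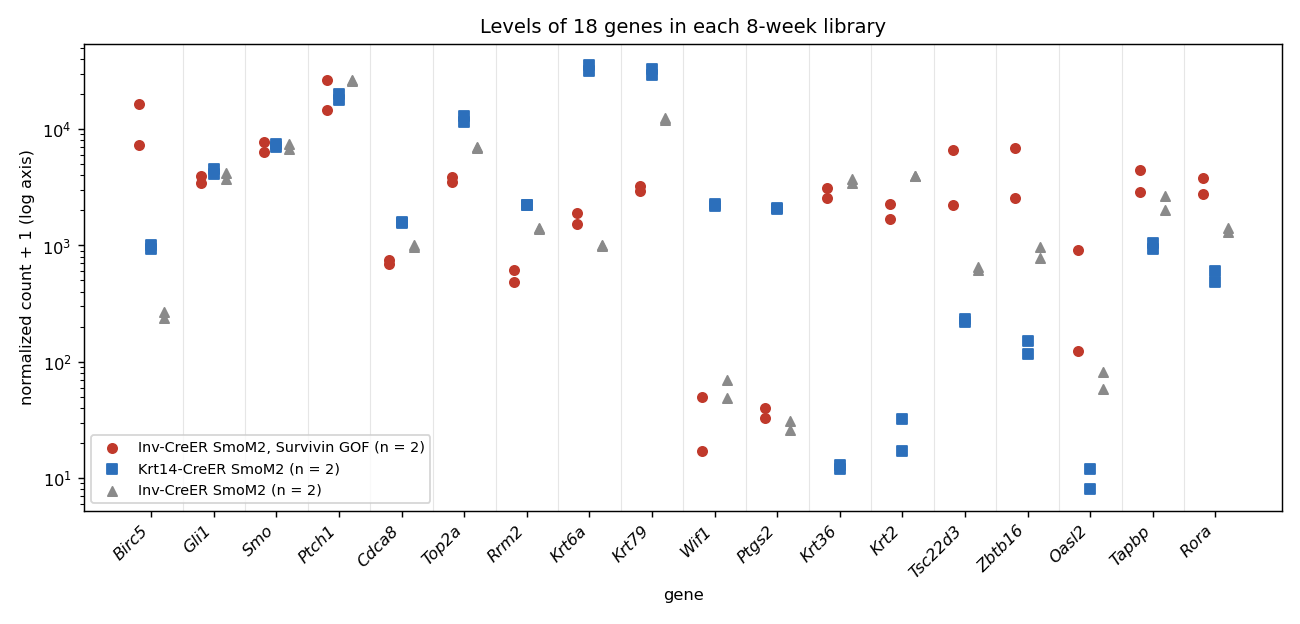
Levels of 18 genes in the 6 libraries at 8 weeks, as normalized count + 1 on a log axis; each point is 1 library, circles GOF, squares Krt14 and triangles Inv, n = 2 each. Birc5 was at 7277 and 16384 in GOF and 1005 and 926 in Krt14, while Krt6a and Wif1 lay lower and Krt36 and Krt2 higher in both GOF libraries than in both Krt14 libraries.

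Genes for Hedgehog receptors and signal transduction were called about as often as genes in general, and Hedgehog response targets less often (5.56%). Of 18 tested genes for Hedgehog receptors and signal transduction (20 listed), 1 rose and 2 fell (16.7% called, beside 16.1% of all genes tested), with a median log2 change of -0.14. Smo, which encodes Smoothened, was at 7755 and 6323 in GOF, 7484 and 7013 in Krt14 and 7436 and 6743 in Inv (log2 change -0.05, SE 0.13, adjusted p = 0.825). The effector Gli1 was at 3966 and 3461 in GOF, 4546 and 4154 in Krt14 and 4194 and 3699 in Inv (-0.23, SE 0.12, adjusted p = 0.244). The receptor Ptch1, itself induced by the pathway, was at 26265 and 14710 against 19937 and 17710 (0.06, SE 0.26, adjusted p = 0.887). Ptch1 values in GOF lay on both sides of those in Krt14, and so did the values of Hhip, an induced ligand-binding inhibitor, at 2941 and 799 against 1449 and 1240, with 4294 and 4555 in Inv. The activator Gli2 was at 5418 and 4059 against 4125 and 4193 (0.17, SE 0.16, adjusted p = 0.484). A p that misses the threshold does not show that these genes were alike in the groups.

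The called Hedgehog genes were co-receptors and a ciliary gene. Cdon, a ligand-binding co-receptor, was at 2855 and 1698 in GOF, 250 and 301 in Krt14 and 1568 and 1701 in Inv (log2 change 3.00, SE 0.26, adjusted p = 0.00324). Gas1, another co-receptor, was lower at 4194 and 2226 against 8551 and 8183 (-1.45, SE 0.28), with 3741 and 3390 in Inv. Evc, which acts with Smoothened in the cilium, was at 320 and 167 against 676 and 582 (-1.44, SE 0.32, adjusted p = 0.0345, and 0.0522 without GOF replicate 2). Among 18 tested response targets (19 listed) 1 rose, the growth factor gene Igf2 at 99 and 47 against 3 and 6, a level in Krt14 that 3 reads would give, and its call was lost without GOF replicate 1 (adjusted p = 0.0513). The median over targets was -0.29. These counts depended on the GOF library. For Hedgehog receptors and signal transduction, replicate 1 lay above replicate 2 in 17 of 18 genes. Without replicate 1, 1 gene rose and 6 fell among them, and 0 rose and 7 fell among Hedgehog response targets. Without replicate 2 the counts were 4 and 1, and 2 and 2. Hhip had log2 changes of -0.75 without replicate 1 and 1.13 without replicate 2, each passing the threshold. Here and in every setting without a GOF replicate, 1 GOF library is set against 2 Krt14 libraries, the spread comes from the Krt14 pair alone, and the GOF library is assumed to vary like them.

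Among passenger complex subunits and partner genes all 7 tested fell in GOF, with log2 changes from -1.57 to -0.65 and a median of -0.82 (11 were listed, 8 are in the table, and Birc5 is not among them). Cdca8, which encodes Borealin, was at 746 and 687 in GOF, 1583 and 1546 in Krt14 and 999 and 971 in Inv (-1.13, SE 0.13, adjusted p = 0.00603). Aurkb, the kinase of the complex, was at 503 and 494 against 845 and 916, with 610 and 610 in Inv (-0.82). Incenp, its scaffold, was at 1693 and 1667 against 2668 and 2589, with 1912 and 1750 in Inv (-0.65). In each of these genes both GOF libraries lay below all 4 Krt14 and Inv libraries. The mitotic kinase Plk1 was at 510 and 315 against 1234 and 1151 (-1.57, SE 0.24), the checkpoint kinase Bub1 at 510 and 494 against 933 and 867 (-0.84, SE 0.14), and the chromatin factor Rcc2 at 3855 and 3806 against 6152 and 5990 (-0.66, SE 0.10).

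Genes of cell division were lower as a group. Calls made up 95% of the G2 and mitosis list, beside 16.1% of all genes tested. Of 40 tested genes for G2 and mitosis (40 listed), 0 rose and 38 fell, with a median log2 change of -1.12 beside a median of 0.08 over all genes tested. Top2a, which untangles chromosomes, was at 3872 and 3520 in GOF, 13067 and 11567 in Krt14 and 6828 and 7079 in Inv, a 3.33-fold lower level than in Krt14 (-1.74, SE 0.12, adjusted p = 0.00214). The spindle motor gene Kif11 was at 1455 and 1360 against 3704 and 3586, with 2178 and 2247 in Inv (-1.37, SE 0.11). Cyclin A2 (Ccna2) was 2.28-fold below Krt14 (-1.19, SE 0.12), and the Inv libraries held 2537 and 2570. The GOF libraries lay below both other groups in these 3 genes, whereas the cytokinesis gene Anln was at 2330 and 2215 in GOF and 2292 and 2184 in Inv, against 4949 and 5241 in Krt14 (-1.16, SE 0.11). Between 36 and 39 of these genes fell when either GOF library was left out and under each scaling, voom included, and 3 fell with no intensity trend.

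DNA replication followed the same direction. Of 40 genes for S phase and DNA replication (40 listed), 0 rose and 27 fell (67.5% called, beside 16.1% of all genes tested, median -0.98). Rrm2, the ribonucleotide reductase subunit that makes deoxynucleotides, was at 486 and 614 in GOF, 2235 and 2206 in Krt14 and 1422 and 1373 in Inv, 4.04-fold below Krt14 (-2.02, SE 0.16, adjusted p = 0.00246). The replication checkpoint adaptor gene Clspn was at 457 and 398 against 1539 and 1502, with 1036 and 1089 in Inv (-1.83, SE 0.15). Thymidine kinase (Tk1) was at 239 and 299 against 887 and 987, with 547 and 411 in Inv (-1.80, SE 0.18). Uhrf1, which brings maintenance methylation to new DNA, was at 1248 and 1059 against 3119 and 3027, with 2651 and 2699 in Inv (-1.42, SE 0.13). GOF was lowest in each of these 4 genes. The methyltransferase Dnmt1, in the list for DNA methylation and Polycomb, was at 3639 and 2881 against 6561 and 6179, with 6323 and 6210 in Inv (-0.98, SE 0.14).

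Of 24 G1 cyclins, CDK inhibitors and related genes (24 listed), 1 rose, 10 fell and 13 were not called. Cyclin E1 (Ccne1) was at 68 and 58 in GOF, 401 and 329 in Krt14 and 299 and 274 in Inv (-2.51, SE 0.26, adjusted p = 0.0045). The transcription factor genes E2f1, E2f2 and E2f8 had log2 changes of -1.42, -1.73 and -1.48. Of 19 tested genes for recombination and Fanconi repair (20 listed), 0 rose, 11 fell and 8 were not called (median -0.78), and 6 fell without GOF replicate 2. Calls made up 45.8% of the G1 list and 57.9% of the repair list, beside 16.1% of all genes tested. Exo1, a resecting exonuclease gene, was at 200 and 195 against 618 and 556, with 512 and 576 in Inv (-1.56, SE 0.18). Brca1 was at 722 and 679 against 1315 and 1390, with 1357 and 1437 in Inv (-0.95, SE 0.13), and its partner Bard1 and the Fanconi gene Fanci had log2 changes of -1.36 and -1.10.

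Because cell cycle genes moved together, the promoters of 2 of them are shown, with the motif of the factors that control such genes in capitals. Only called members holding the motif could be picked, so a match in the genes shown was fixed in advance. The sequences are from RefSeq (GRCm38.p6) and run 5′ to 3′ on the gene's strand over the 250 bases before the transcription start. In Top2a (chr11:99024190-99024439, minus strand) the capitals mark TTTGAA or TTCGAA on either strand, the cell cycle homology region (CHR) read by the DREAM and MuvB complexes, here with 4 matches. In Uhrf1 (chr17:56303087-56303336, plus strand) they mark TTCCCGC or TTGGCGC on either strand, forms of the E2F motif.
Top2a: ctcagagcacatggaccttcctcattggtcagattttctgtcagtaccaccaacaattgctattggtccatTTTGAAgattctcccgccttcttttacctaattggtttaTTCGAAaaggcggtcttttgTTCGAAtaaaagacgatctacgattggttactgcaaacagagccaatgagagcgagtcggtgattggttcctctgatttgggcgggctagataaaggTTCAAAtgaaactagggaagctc
Uhrf1: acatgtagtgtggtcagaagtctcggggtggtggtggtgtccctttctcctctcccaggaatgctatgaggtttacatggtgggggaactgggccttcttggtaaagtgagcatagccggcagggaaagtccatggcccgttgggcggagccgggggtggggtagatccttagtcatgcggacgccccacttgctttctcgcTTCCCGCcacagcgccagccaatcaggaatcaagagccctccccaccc
Motifs were counted over longer windows, from 250 bases before the start to 50 after it. CHR letters stood in 29 of 35 windows of the G2 and mitosis genes (82.9%) and in 14.3% of the 14889 windows of all tested genes that have one. E2F letters stood in 20 of 40 windows of the S phase genes (50%) and in 11% of all. In turn, 20% of G2 and mitosis windows held E2F letters and 17.5% of S phase windows held CHR letters. TTCGAA reads alike on both strands, and matches of both motifs may overlap at their ends. A match is a description of the window and not a binding site.

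Apoptosis regulators were called as often as genes in general. Of 25 tested (29 listed), 4 rose and 0 fell (16% called, beside 16.1% of all genes tested; median 0.13), or 7 rose and 4 fell without GOF replicate 1. The rises included inhibitor-of-apoptosis relatives of Survivin, Birc3 at 1253 and 1033 in GOF, 348 and 424 in Krt14 and 1065 and 1132 in Inv (1.56, SE 0.18, adjusted p = 0.00603), and Birc2 at 1503 and 1534 against 704 and 776, with 1361 and 1367 in Inv (1.04, SE 0.13). Bcl2l2, a survival gene of the Bcl2 family, held 1001 and 1061 in GOF and 535 and 546 in Krt14 (0.93, SE 0.14), and the initiator caspase gene Casp9 at 611 and 531 against 354 and 355 (0.68, SE 0.17, adjusted p = 0.0442, and 0.0632 with a replicate block). In Birc2, Birc3 and Casp9 the Inv levels were close to those of GOF and above Krt14. Of 26 p53 response genes (26 listed), 4 rose and 3 fell (26.9% called, beside 16.1% of all genes tested, median -0.00). Trp53inp1 was at 8503 and 15279 against 3302 and 3257 (1.80, SE 0.26). Sesn1 was at 1787 and 5462 against 734 and 684 (2.14, SE 0.48, adjusted p = 0.0342, and 0.059 after quantile normalization). Both were higher in GOF replicate 2. The related gene Sesn2 fell, at 234 and 185 against 445 and 421 (-1.05, SE 0.21, adjusted p = 0.0247).

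Of 26 tested wound and hyperproliferation genes of keratinocytes (32 listed, 29 in the table), 0 rose, 18 fell and 8 were not called, with a median log2 change of -2.98, or -2.72 with the 6 genes that were at the floor of 3 reads in a group set to that floor. Those 6 passed the filter only through their other group, so the direction of their change was fixed in advance. Of the 26 genes 69.2% were called, beside 16.1% of all genes tested. Krt6a, a keratin of wounded epidermis, was at 1907 and 1529 in GOF, 31648 and 35496 in Krt14 and 997 and 1003 in Inv, 19.5-fold below Krt14 (-4.29, SE 0.14, adjusted p = 3.87e-04). Krt6b was at 311 and 172 against 6404 and 6291, with 192 and 190 in Inv (-4.77, SE 0.27). The 2 genes are near copies, so reads may be split between them, but both moved the same way. Ligands of the EGF receptor were near or at the floor in GOF: Areg was at 5 and 3 against 310 and 306, with 0 and 5 in Inv, and Ereg at 8 and 8 against 246 and 261, with 5 and 7 in Inv. S100a8 and S100a9, calprotectin subunits, were at 63 and 47 and at 73 and 52 in GOF, against 734 and 1191 and 741 and 1089 in Krt14 (-4.08, SE 0.31 and -3.84, SE 0.29). Defining neutrophil genes were at 0 in both GOF libraries and low in Krt14, with Cxcr2 at 5 and 11, Ly6g at 3 and 0 and Csf3r at 3 and 0, and the part of neutrophils in the S100 values was not tested.

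Of 25 genes for EGF ligands and ErbB receptors (25 listed), Areg and Ereg included, 2 rose, 9 fell and 14 were not called (median -0.35), or 7 rose and 8 fell without GOF replicate 1 (median -0.08). With all 4 libraries, 44% of this list was called, beside 16.1% of all genes tested. The rises were of Errfi1 and Spred2, inhibitors of this signalling, with log2 changes of 2.40 and 0.67. The ligand gene Nrg1 was at 152 and 175 in GOF, 1803 and 2716 in Krt14 and 73 and 57 in Inv (-3.75, SE 0.23, adjusted p = 0.00192), and Epgn at 22 and 26 against 264 and 304, with 12 and 7 in Inv (-3.51, SE 0.31). Prostaglandin synthase 2 (Ptgs2) was at 32 and 39 against 2115 and 2076, with 30 and 25 in Inv (-5.85, SE 0.20, adjusted p = 3.87e-04). In these 3 genes Inv was below GOF and both were below Krt14.

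Differentiation genes of the spinous and granular layers fell in part. Calls made up 50% of the spinous list and 45.2% of the granular list, beside 16.1% of all genes tested. Of 24 spinous genes (24 listed), 1 rose and 11 fell (median -0.91). The desmosomal cadherin gene Dsc1 was at 996 and 708 in GOF, 2719 and 2548 in Krt14 and 681 and 685 in Inv (-1.65, SE 0.19, adjusted p = 0.00556), and the protease inhibitor gene Serpinb2 at 445 and 219 against 3089 and 3479 (-3.39, SE 0.32). The spinous gene that rose was the metallothionein Mt4, at 719 and 518 against 33 and 36, with 485 and 389 in Inv (4.11, SE 0.27). Of 31 tested genes for the granular layer and cornification (39 listed), 1 rose and 13 fell (median -1.12). Casp14, a barrier protease gene, held 118 and 73 in GOF and 845 and 760 in Krt14 (-3.10, SE 0.27). Sprr1a, of the cornified envelope, held 77 and 34 against 926 and 941 (-4.16, SE 0.39), and Spink5, a protease inhibitor gene, 395 and 502 against 2052 and 2423 (-2.32, SE 0.18). Ivl, which encodes involucrin, was at 118 and 73 against 165 and 258, with 78 and 43 in Inv, and did not pass (-1.14, SE 0.36, adjusted p = 0.0815, and 0.0335 in the 5-group fit). Krt10, the first keratin of differentiation, was at 17371 and 11538 against 17275 and 15306 (-0.20, SE 0.20, adjusted p = 0.529).

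Basal keratins did not pass, and basement membrane genes moved both ways. Krt14 itself was at 66834 and 47388 in GOF, 70080 and 75213 in Krt14 cells and 58626 and 54039 in Inv (-0.37, SE 0.18, adjusted p = 0.203). Krt5 was at 105628 and 61520 against 118123 and 122426 (-0.58, SE 0.25, adjusted p = 0.161). Both keratins were lower in GOF replicate 2 than in replicate 1, and both passed without replicate 1 (adjusted p = 0.0311 and 0.0193). Of 28 basal genes (28 listed), 4 rose and 3 fell (median 0.03), or 5 and 11 without GOF replicate 1. With all 4 libraries, 25% of the basal genes were called, beside 16.1% of all genes tested. Sdc1, a cell surface proteoglycan gene, was at 5670 and 5062 against 12294 and 13016 (-1.24, SE 0.11), while Fras1, of the extracellular Fraser complex, was at 1609 and 1350 against 454 and 368, with 3177 and 3033 in Inv (1.85, SE 0.18). Lama5, a laminin chain gene, was at 15894 and 19374 against 11237 and 10603 (0.68, SE 0.13).

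Among the 10 largest rises, Krt36 and Krt84, hard keratins, went from 12 and 11 and from 17 and 16 in Krt14 to 3098 and 2564 and to 4240 and 3266 in GOF, with 3700 and 3428 and 6803 and 6016 in Inv (7.82, SE 0.23 and 7.73, SE 0.22). Krt2, a keratin of suprabasal epidermis, was at 2278 and 1693 against 31 and 16, with 3966 and 3959 in Inv (6.40, SE 0.35, adjusted p = 0.00169). These 3 keratins were nearly silent in Krt14 alone. Of 14 tested genes for hair shaft and inner root sheath (24 listed), 1 rose, Krt36, and 2 fell (21.4% called, beside 16.1% of all genes tested). The falls were of Padi3 (-2.95) and Krt28 (-1.33). Padi3 was at the floor of 3 reads in GOF, so the direction of its change was fixed in advance. The Krt28 call was lost in the 5-group fit (adjusted p = 0.0576) and with voom (adjusted p = 0.0504). Of 21 tested bulge and upper follicle genes (22 listed), 0 rose and 9 fell (42.9% called, beside 16.1% of all genes tested, median -0.76). Krt79, a keratin of the upper follicle canal, was at 2924 and 3224 against 32603 and 29132, with 12521 and 11972 in Inv (-3.33, SE 0.11, adjusted p = 3.87e-04). Nfatc1, a regulator of bulge stem cell quiescence, held 2859 and 2457 in GOF and 10381 and 10121 in Krt14 (-1.95, SE 0.12), and the kallikrein gene Klk10 at 44 and 65 against 912 and 1230 (-4.28, SE 0.28).

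Wnt and BMP genes included some of the largest single changes. Calls made up 40.6% of the Wnt list, 42.3% of the embryonic follicle list and 39.4% of the TGF-beta and BMP list. Of all genes tested 16.1% were called. Wif1, a secreted Wnt inhibitor gene, was at 49 and 16 in GOF, 2177 and 2278 in Krt14 and 69 and 48 in Inv, 68.5-fold below Krt14 (-6.26, SE 0.49, adjusted p = 0.00246). Of 32 tested genes for Wnt signalling and response (39 listed), 7 rose and 6 fell. The ligand gene Wnt5a was at 294 and 250 against 1032 and 1153, with 895 and 861 in Inv (4.02-fold below Krt14), and the stem cell receptor gene Lgr5 at 1862 and 1734 against 4054 and 3902, with 3017 and 3198 in Inv (-1.15, SE 0.11). GOF was lower than both other groups in Wnt5a and Lgr5 but not in Wif1. Of 26 tested genes for the embryonic follicle and placode (28 listed), 3 rose and 8 fell. Bmp2 was at 633 and 359 against 44 and 26, with 301 and 280 in Inv (3.78, SE 0.40), and Foxe1, a follicle transcription factor gene, at 135 and 91 against 924 and 753 (-2.90, SE 0.26). Of 33 TGF-beta and BMP genes (34 listed), 6 rose and 7 fell, with the co-receptor Tgfbr3 at 1503 and 3053 against 253 and 256 (3.07, SE 0.32), the activin subunit Inhba at 17 and 13 against 225 and 258 (-3.93, SE 0.35) and the latency protein gene Ltbp1 at 1123 and 1147 against 3598 and 3242, with 3042 and 2864 in Inv (-1.59, SE 0.12). Notch genes gave 2 rises and 2 falls among 18 (22 listed), 22.2% called, beside 16.1% of all genes tested. Among them Hes1, a target, was at 787 and 656 against 1375 and 1380 (-0.94, SE 0.15).

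**Figure D2:**
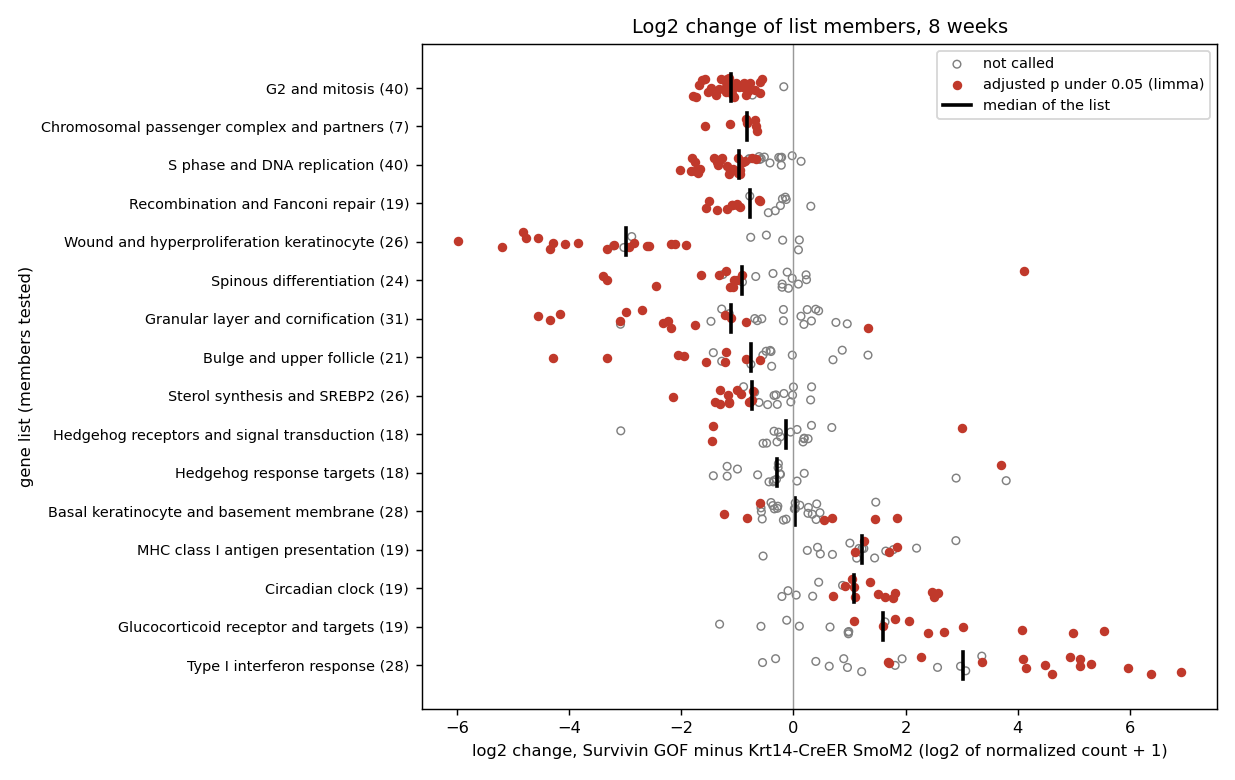
Log2 change, GOF minus Krt14, of each tested member of 16 gene lists; each point is a gene, filled where limma's adjusted p is under 0.05, the vertical bar is the list's median, and the number tested stands beside the name. Members for mitosis, the passenger complex and wound keratinocytes lie to the left (medians -1.12, -0.82 and -2.98). Those for the glucocorticoid receptor and its targets, the clock and interferon response lie to the right (1.60, 1.09 and 3.03), and the Hedgehog lists around zero. With genes at the floor of 3 reads in a group set to it, the medians were -2.72 for wound keratinocytes and 2.43 for interferon response. The direction of those genes was fixed in advance by the filter.

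Genes for the glucocorticoid receptor and its targets rose in 10 of 19 tested cases (21 listed), and 0 fell. The receptor is a steroid-activated transcription factor that restrains inflammation in skin, and its gene Nr3c1 was among the 10. The median log2 change was 1.60, and 8.42% of all genes tested were called higher. Fkbp5, a receptor co-chaperone gene, was at 4757 and 7165 in GOF, 947 and 867 in Krt14 and 1909 and 1915 in Inv (2.69, SE 0.20, adjusted p = 0.00246). Zbtb16 was at 2581 and 6835 against 149 and 115, with 974 and 786 in Inv (4.99, SE 0.44), and Tsc22d3, the leucine zipper gene known as Gilz, at 2213 and 6580 against 234 and 217, with 617 and 649 in Inv (4.08, SE 0.47). In all 3 genes GOF was above both other groups. The receptor gene Nr3c1 was at 5516 and 4384 against 2238 and 2387, with 5206 and 5605 in Inv (1.09, SE 0.14). GOF replicate 2 lay above replicate 1 in 17 of these 19 genes. The median was 2.52 for replicate 2 alone (15 rose) and 1.00 for replicate 1 alone (10 rose, 1 fell). After quantile normalization 5 rose and with voom 6. Sgk1, a kinase gene also induced by the receptor, was at 2972 and 12731 against 8063 and 10458, with 892 and 901 in Inv, so its GOF values lay on both sides of Krt14.

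Clock genes, several of which glucocorticoids can reset, were higher in 13 of 19 cases (19 listed), with 0 lower and a median of 1.09, or 8 higher after quantile normalization. In the main fit 68.4% of the clock genes were called, beside 16.1% of all genes tested. Rora, a nuclear receptor gene of the clock, was at 2763 and 3793 in GOF, 602 and 488 in Krt14 and 1295 and 1407 in Inv (2.58, SE 0.20, adjusted p = 0.00246). Npas2, a Clock relative, was at 356 and 333 against 56 and 64, with 180 and 174 in Inv (2.50, SE 0.25), and the output factor gene Hlf at 1251 and 1337 against 442 and 388, with 785 and 807 in Inv (1.64, SE 0.15). GOF was highest and Krt14 lowest in these 3 genes, while the output gene Dbp was at 534 and 393 against 530 and 452. The labels give no time of day of collection, and its part was not tested.

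Immediate early genes, which respond within minutes to growth factors and to cell dissociation, were lower in 12 of 28 cases (28 listed), with 0 higher (median -0.81), or 19 lower without GOF replicate 2 and 13 lower and 3 higher without replicate 1. Calls made up 42.9% of the immediate early list, beside 16.1% of all genes tested. Fos was at 4273 and 4800 in GOF, 14589 and 14061 in Krt14 and 3177 and 2651 in Inv (-1.66, SE 0.11, adjusted p = 0.00205). Egr3 was at 710 and 695 against 2244 and 1956 (-1.58, SE 0.14) and Nr4a1 at 715 and 466 against 2332 and 2418 (-2.04, SE 0.22). The heat shock gene Hsph1 was lower, at 460 and 377 against 1358 and 1263, with 576 and 664 in Inv (-1.65, SE 0.16, adjusted p = 0.0041). The heat shock genes Hspa1a and Hspa1b were at 1222 and 962 and at 2571 and 1870 in GOF, against 1081 and 992 and 2325 and 2181, and did not pass. PI3K, mTOR and SGK genes gave 4 rises and 1 fall among 31 (32 listed), or 14 and 2 without GOF replicate 1 and 8 and 1 without replicate 2. With all 4 libraries, 16.1% of this list was called, beside 16.1% of all genes tested. Irs1, the insulin receptor substrate gene, was at 5252 and 3572 against 2147 and 1770, with 4426 and 4218 in Inv (1.15, SE 0.21), and the ubiquitin ligase gene Nedd4l at 962 and 1176 against 523 and 533 (1.01, SE 0.16).

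Interferons bind receptors that switch on antiviral genes through the STAT and IRF factors. Of 28 tested genes for the type I interferon response (33 listed), 15 rose, 0 fell and 13 were not called, with a median of 3.03, or 2.43 with the 10 genes at the floor of 3 reads in a group set to it. Those 10 passed the filter only through their other group, so the direction of their change was fixed in advance. Of the 28 genes 53.6% were called, beside 16.1% of all genes tested. Rsad2, Trim30a, Ifi44, Gbp9, Ddx60 and Iigp1 below were at that floor in Krt14. Rsad2, which encodes the antiviral protein viperin, was at 303 and 47 in GOF, 0 and 0 in Krt14 and 3 and 3 in Inv. Trim30a was at 118 and 32 against 0 and 0, and Ifi44 at 227 and 29 against 0 and 0. Xaf1 was at 397 and 130 against 14 and 11, with 55 and 59 in Inv (4.09, SE 0.58, adjusted p = 0.0102). Replicate 1 lay above replicate 2 in 27 of the 28 genes, and Irf1, a factor gene, stood level at 563 and 562 against 144 and 212, with 549 and 477 in Inv (1.68, SE 0.24). The guanylate-binding genes Gbp9, at 246 and 143 against 0 and 0, with 110 and 98 in Inv, and Gbp7, at 643 and 182 against 12 and 0, were among the 10 largest rises. So were Ddx60, at 409 and 73 against 0 and 3, and Iigp1, an interferon-induced GTPase gene, at 597 and 104 against 0 and 6, with 35 and 30 in Inv.

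The interferon list's median was 4.14 for replicate 1 alone (18 rose) and 1.88 for replicate 2 alone (11 rose), and 9 rose with voom on recovered reads. Of the named genes, Rsad2, Gbp7, Iigp1, Ddx60 and Ifi44 lost their call with voom (adjusted p = 0.0559, 0.0638, 0.0944, 0.0711 and 0.0662). Gbp7 and Iigp1 also lost it without replicate 1 (0.13 and 0.0968) and without replicate 2 (0.104 and 0.0689), Ddx60 without replicate 1 (0.0621) and Irf1 without replicate 2 (0.067). Again picked only among called members with a match, the promoter of Rsad2 is shown because the interferon genes moved together. It holds 1 match to GAAA-NN-GAAA, the core of the interferon-stimulated response element (ISRE), here on the other strand, in capitals (RefSeq, GRCm38.p6, chr12:26456453-26456702, minus strand, 250 bases before the start, 5′ to 3′).
Rsad2: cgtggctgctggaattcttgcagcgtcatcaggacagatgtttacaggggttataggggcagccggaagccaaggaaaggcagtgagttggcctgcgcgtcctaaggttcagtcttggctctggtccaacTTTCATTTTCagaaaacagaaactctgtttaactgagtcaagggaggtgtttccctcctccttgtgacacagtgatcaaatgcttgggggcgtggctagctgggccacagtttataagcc
Over the longer windows used for the cell cycle genes, these letters, on either strand, stood in 13 of 28 windows of the interferon genes (46.4%). They stood in 2.93% of the windows of all tested genes.

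Of 19 genes for MHC class I antigen presentation (19 listed), 4 rose, 0 fell and 15 were not called (21.1% called, beside 16.1% of all genes tested; median 1.22). Tapbp, which loads peptides, was at 4425 and 2868 in GOF, 1053 and 939 in Krt14 and 2658 and 2003 in Inv (1.84, SE 0.22, adjusted p = 0.00631). The immunoproteasome gene Psmb8 was at 909 and 468 against 209 and 189, with 492 and 445 in Inv (1.71, SE 0.32), and the transporter gene Tap1 at 2013 and 1259 against 759 and 727, with 963 and 895 in Inv (1.10, SE 0.23). Replicate 1 was above replicate 2 in all 19, and 7 rose without replicate 1, 13 without replicate 2 and 11 with a replicate block. Heavy chain genes share sequence, so single H2 genes are uncertain. The interferon-induced chemokine genes Cxcl10, at 311 and 141 against 26 and 23 (3.05, SE 0.45), and Cxcl9, at 176 and 63 against 3 and 8, also rose, the latter call being lost without either GOF library (adjusted p = 0.0628 without replicate 1 and 0.0513 without replicate 2). Il1rn, the interleukin 1 receptor antagonist gene, was at 94 and 58 against 435 and 477 (-2.61, SE 0.29).

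**Figure D3:**
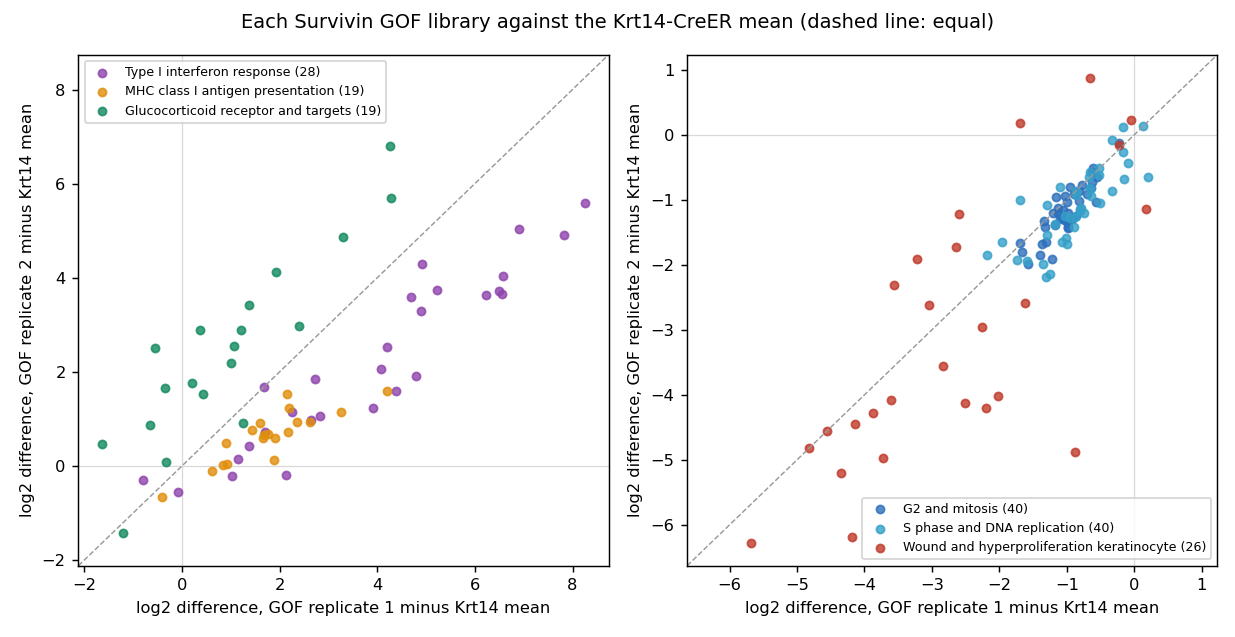
Log2 difference of each GOF library from the Krt14 mean, replicate 1 on the horizontal and replicate 2 on the vertical axis, for members of 6 gene lists; the dashed line marks equal differences. Interferon and MHC class I genes lie below the line in the left plot (27 of 28 and 19 of 19 genes), glucocorticoid genes mostly above it (17 of 19), and the S phase and mitosis genes of the right plot keep close to it.

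Feedback genes of NF-kappaB were higher in 5 of 19 cases (20 listed), with 0 lower, or 9 without GOF replicate 1. With all 4 libraries, 26.3% of this list was called, beside 16.1% of all genes tested. Icam1, an adhesion gene, was at 1542 and 1584 in GOF, 685 and 669 in Krt14 and 1422 and 1222 in Inv (1.21, SE 0.13, adjusted p = 0.00498), and Tnfaip3, the feedback inhibitor A20, at 1258 and 978 against 470 and 523, with 2048 and 1854 in Inv (1.16, SE 0.18). Matrix metalloproteinase and TIMP genes were lower in 7 of 19 cases (24 listed), with 0 higher (36.8% called, beside 16.1% of all genes tested). The sheddase gene Adam10 held 2893 and 2488 in GOF and 6013 and 5544 in Krt14 (-1.11, SE 0.12), and the collagenase gene Mmp13 at 17 and 42 against 345 and 309, with 19 and 23 in Inv (-3.56, SE 0.46).

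Of 26 genes for sterol synthesis and SREBP2 (26 listed), 0 rose, 13 fell and 13 were not called (median -0.73). Over the same longer promoter windows, letters of the sterol regulatory element (TCAC-N-CCAC, either strand) stood in 1 of 24 windows of these genes (4.17%). They stood in 1.18% of the windows of all tested genes. Cyp51, which demethylates lanosterol, was at 1612 and 1126 in GOF, 3577 and 3081 in Krt14 and 7022 and 7246 in Inv (-1.30, SE 0.19, adjusted p = 0.012). Msmo1 was at 1681 and 1220 against 3304 and 3017, with 11297 and 11577 in Inv (-1.14, SE 0.18), and the sterol carrier gene Stard4 at 291 and 175 against 1037 and 975 (-2.15, SE 0.26). Levels of Cyp51 and Msmo1 were thus lowest in GOF and highest in Inv. Of 34 tested genes for fatty acid and sebum lipid (35 listed), 7 rose, 4 fell and 23 were not called (median 0.14), or 7 rose and 8 fell without GOF replicate 1. Calls made up 50% of the sterol list and 32.4% of the fatty acid and sebum list, beside 16.1% of all genes tested. Me1, a source of NADPH for synthesis, was at 4538 and 3812 against 2071 and 1706, with 8598 and 9430 in Inv (1.15, SE 0.15), and Gpam, the acyltransferase of triglyceride synthesis, at 2643 and 2972 against 1398 and 1273, with 4956 and 4914 in Inv (1.07, SE 0.13). Markers of sebaceous cells, 7 in all, summed to 6330 and 8339 in GOF, 7199 and 6684 in Krt14 and 32759 and 33654 in Inv.

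Energy and antioxidant genes changed in both directions. Calls made up 35.3% of the glycolysis and hypoxia list, 41.7% of the Nrf2 targets and 30% of the YAP and TAZ response genes. Of all genes tested 16.1% were called. Of 34 genes for glycolysis and hypoxia (34 listed), 5 rose and 7 fell, or 8 and 12 without GOF replicate 1 and 2 and 8 without replicate 2. Egln3, an oxygen-sensing hydroxylase gene, was at 1794 and 1896 in GOF, 588 and 584 in Krt14 and 651 and 646 in Inv (1.65, SE 0.13, adjusted p = 0.00246), whereas enolase (Eno1) was at 2953 and 2184 against 5888 and 5858, with 2565 and 2342 in Inv (-1.21, SE 0.16). Egln3 was high in GOF alone, and Eno1 was high in Krt14 alone. Nuclear respiratory chain genes gave 0 rises and 7 falls among 35 (35 listed), or 14 falls without GOF replicate 1, with Cox6c at 1597 and 1534 against 2825 and 2530 (-0.77, SE 0.12). With all 4 libraries, 20% of the nuclear respiratory chain genes were called, beside 16.1% of all genes tested. The mitochondrially encoded oxidase gene mt-Co1 held 138762 and 129455 in GOF, 118548 and 125381 in Krt14, and missed the threshold (0.14, SE 0.11, adjusted p = 0.437). Nrf2 targets gave 5 rises and 5 falls among 24 (24 listed), and the peroxidase gene Gpx2 was at 20 and 29 against 775 and 743, with 30 and 7 in Inv (-4.92, SE 0.28). YAP and TAZ response genes gave 3 rises and 3 falls among 20 (24 listed), Cyr61 at 332 and 437 against 1664 and 1737 (-2.16, SE 0.18) and Ctgf at 2287 and 2364 against 1079 and 1451, with 920 and 917 in Inv (0.89, SE 0.17). The Ctgf call was lost without either GOF replicate (adjusted p = 0.0778 without replicate 1 and 0.105 without replicate 2).

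The other genes among the 10 largest falls had low levels in both GOF and Inv. The retinol-binding gene Rbp2 was at 5 and 8 in GOF, 713 and 819 in Krt14 and 5 and 12 in Inv. Gsdmc and Gsdma3, gasdermin genes, were at 0 and 0 and at 0 and 8 in GOF, against 142 and 92 and 204 and 345. Tmprss11b, a membrane protease gene, was at 3 and 3 against 188 and 319, Nos1, a nitric oxide synthase gene, at 0 and 3 against 130 and 151, and Rnase2b at 10 and 0 against 149 and 133. No fold is given for these genes, since GOF was at or near the floor of 3 reads, 6.76 to 7.80 normalized counts over the libraries. Rbp2, Gsdmc, Gsdma3, Tmprss11b and Nos1 were at that floor in GOF and passed the filter only through Krt14. The direction of their change was thus fixed in advance. Aldh1a3, a retinoic acid synthesis gene, was at 15 and 37 against 937 and 1276, with 39 and 48 in Inv, 42.6-fold below Krt14 (-5.47, SE 0.44).

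Transcripts of other cell types rose in places and differed between the GOF libraries. Dcn was at 37402 and 14512 in GOF, 2235 and 1574 in Krt14 and 17515 and 19565 in Inv (3.63, SE 0.43, adjusted p = 0.00631). Thy1, a surface gene of fibroblasts that is also among the listed T cell markers, was at 683 and 349 against 56 and 80 (2.85, SE 0.38). The collagen gene Col1a2 was at 114 and 97 against 40 and 26 (1.67, SE 0.38, adjusted p = 0.0358), a call lost without GOF replicate 1 or 2 (0.0989 and 0.0995) and in the 5-group fit (0.0806). Fbln1, another fibroblast gene, was lower at 1561 and 1927 against 4396 and 4078 (-1.29, SE 0.14), and over all 10 fibroblast markers (10 listed) 3 rose, 1 fell and 6 were not called. Calls thus made up 40% of the fibroblast markers, beside 16.1% of all genes tested. Col1a1, at 85 and 89 against 102 and 138, and Pdgfra, at 13 and 8 against 26 and 23, lay below Krt14. Lum lay above it, at 29 and 50 against 12 and 13, and Col3a1 on both sides, at 13 and 47 against 26 and 31. Endothelial markers gave 3 rises and 1 fall among 7 tested (8 listed), with a median of 2.54, and 0.64 without GOF replicate 2, when 1 rose. With the 3 endothelial genes at the floor of 3 reads in a group set to it, the median was also 2.54. Those genes passed the filter only through their other group, so the direction of their change was fixed in advance. With all 4 libraries, 57.1% of the endothelial markers were called, beside 16.1% of all genes tested. The endothelial gene that fell was Vwf (log2 change -1.35). Its call was lost after quantile normalization (adjusted p = 0.0631) and with a replicate block (adjusted p = 0.0579). Kdr, the vascular growth factor receptor gene, was at 41 and 294 against 3 and 3, and Emcn, a vessel surface gene, at 49 and 242 against 0 and 3. Both lost their call with voom (adjusted p = 0.126 for Kdr and 0.0611 for Emcn). Cdh5, the endothelial cadherin gene, did not pass, at 15 and 221 against 14 and 6. Kdr, Emcn and Cdh5 were each higher in GOF replicate 2, which was also the library with more Xist and higher glucocorticoid targets. Melanocyte markers gave 2 rises among 11 (12 listed), Kit at 114 and 112 against 38 and 44 (1.44, SE 0.32) and Ednrb at 61 and 123 against 19 and 18 (2.17, SE 0.48), and 0 without GOF replicate 2. With all 4 libraries, 18.2% of the melanocyte markers were called, beside 16.1% of all genes tested. Cd74, the invariant chain gene of antigen-presenting cells, held 441 and 333 in GOF, 100 and 230 in Krt14, and missed the threshold (1.33, SE 0.41, adjusted p = 0.0775).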

How the data were processed

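Polyadenylated RNA of sorted SmoM2-YFP-expressing epidermal cells was made into libraries with the Ovation Solo system, per the labels' protocols. STAR, HTSeq and the mouse build GRCm38 (mm10) are named in the submitters' processing notes. For versions, annotation release and strandedness, the entry is: not given in the sources used here. Values deposited by the authors are normalized counts rounded to whole numbers, treated here as a score and not as raw counts: columns sum to between 20011195 and 20014054. Between 98.7% and 99.9% of values below 20000 are, after rounding up, whole multiples of 1 library-specific step, and dividing by it gave each library's reads. No molecular identifiers were counted, so the floor of 3 reads covers counting error only. Of 49671 gene IDs, 49412 matched GENCODE M21 (GRCm38). RefSeq promoter windows (GRCm38.p6) were found for 11721 tested genes.

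The 4 libraries were fitted with limma 3.58.1 in R 4.3.3 on log2(value + 1), with an intensity trend, 2 residual and 4.10 prior degrees of freedom and two-sided tests. P-values were adjusted by Benjamini-Hochberg over all 20496 genes, with a threshold of 0.05. Only these libraries were fitted since the GOF pair spread more than the other groups, and the 5-group fit was an alternative. Other alternatives were the pseudocount, filter, scaling, array weights, robust fit, trend, replicate block, threshold, voom on recovered reads, left-out libraries, and leaving out X and Y genes or predicted models. Leaving out a library within the 5-group fit was added after seeing the data.

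Named genes were Birc5, Smo, Gli1, Gli2, Ptch1, Hhip, Krt14, Krt5, Krt10, Ivl, Xist and Ddx3y, the 10 largest rises and 10 largest falls among calls with a mean of at least 50 and no overlap of groups (no predicted models or pseudogenes), and up to 4 called members with the smallest p of each of 46 lists, or the 2 members of highest mean where none was called. Not all of these are described. Aurkb, Incenp, Sgk1, Dbp, Hspa1a, Hspa1b, Cdh5, Errfi1, Spred2, Oasl2 and the cell type genes at or near 0 were chosen after their values were seen. The members and lists were chosen with earlier results of these data known. Lists are described by counts and medians, with no list test.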

Additional observations from a re-analysis of the deposited data

How the results depend on the processing

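The fit to all 5 groups called 6138 genes (3375 higher and 2763 lower), that with no intensity trend 617 (283 and 334), and that with no filter on low values 0 (0 and 0). An adjusted p of 0.01 left 737 (271 and 466), and a change of at least 2-fold 2037 (1021 and 1016). Leaving out each of the 4 libraries in turn gave 0 to 5045 calls (0 to 2242 higher and 0 to 2803 lower). Within the 5-group fit it gave 3370 to 7366 calls (1799 to 3521 higher and 1571 to 3845 lower), with 5497 (3168 higher) without GOF replicate 2, an alternative chosen after seeing the data; the single library left of a group is assumed to vary like the others. Birc5 had log2 changes of 3.50 with no filter (adjusted p = 0.0799) and 3.50 with no trend (adjusted p = 0.0548), and of 2.91 to 4.08 with a library left out, not passing without Krt14 replicate 1 (adjusted p = 0.299) or 2 (adjusted p = 0.286) in the 4-library fit.

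With a replicate block 3341 genes were called (1743 higher and 1598 lower), 2913 of them among the 3301. Same-numbered libraries did not deviate together (correlation -0.034 over the 2 pairs), so the numbers only name libraries. Other pseudocounts, scalings, a stricter filter, a robust fit, voom and the left-out gene classes gave 2825 to 3635 calls, and array weights in the 5-group fit 4587. Signs turned only in named genes that were not called: Ptch1 at -0.0049 and mt-Nd5 at -0.028 under median of ratios, mt-Co1 at -0.00 under quantile normalization, and, with a library left out, Smo (-0.20 to 0.10), Krt10 (-0.50 to 0.10), Ptch1 (-0.35 to 0.48, and -0.0205 without Krt14 replicate 2), Gli2 (-0.0351 to 0.38), Hhip (-0.75 to 1.13), Ddx3y (-1.35 to 0.43) and mt-Nd5 (-0.0731 to 0.16, and -0.0014 without Krt14 replicate 1). Genes near the floor of 3 reads are limited by depth, and with 2 libraries a group by replicate number.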
